A study of Mus musculus with 6 samples.

Results

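Laminins, nidogens and perlecan are secreted proteins of the basement membrane, the thin sheet of matrix that surrounds each muscle fibre. The 9 genes described here are those of the deposited table whose symbol is Lama2, Lama4, Lama5, Lamb1, Lamb2, Lamc1, Nid1, Nid2 or Hspg2. All 9 were found among 16854 genes, and all 9 were among the 16245 with a normalised count of at least 10 in at least 3 libraries, the genes that were tested. The RNA came from C2C12, a mouse myoblast line that fuses into myotubes when serum is withdrawn. Knockdown cells stably expressed a short hairpin RNA against Adamtsl2 (3 libraries), and control cells carried a scrambled hairpin (3 libraries). Cells of both groups were grown to confluence, switched to medium with 2% horse serum and collected on day 3, and poly(A) RNA was sequenced. Adamtsl2 encodes a secreted glycoprotein that binds fibrillin microfibrils, and the series title places the study in Wnt signalling during myogenesis. The labels name 1 hairpin, and they do not say whether replicates were separate cultures, so the p-values measure only the spread between these libraries. With this design the loss of Adamtsl2 cannot be told apart from anything else that sets the 2 stable lines apart, other targets of the hairpin among them.

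A laminin is a cross-shaped trimer of 1 α, 1 β and 1 γ chain that assembles inside the cell before secretion. The α chain carries the globular domains that bind integrins and dystroglycan at the cell surface, and the 3 short arms polymerise into a sheet. Nidogens bridge the laminin γ1 chain to type IV collagen, and perlecan, a very large heparan sulfate proteoglycan, connects the network with growth factors and dystroglycan. In adult skeletal muscle the α2 chain, encoded by Lama2, is the main laminin α chain of the fibre, and its loss causes congenital muscular dystrophy in humans. Lama4 and Lama5 chains are typical of vessel walls and of embryonic muscle.

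The libraries held 37346439 to 50329438 reads, recovered from the normalised values, and a member had 304 to 128850 reads in a library. Adamtsl2 (chromosome 2) was at a normalised count of 23.2, 21.7 and 7.83 in the knockdown libraries and 1325, 1266 and 1307 in the control libraries. Knockdown library 3 stood apart: its log2 values correlated with those of knockdown libraries 1 and 2 at 0.917 and 0.9202 across genes. Knockdown libraries 1 and 2 correlated with each other at 0.9957, and control libraries with each other at 0.993 to 0.995. Results without knockdown library 3 thus rest on 2 knockdown libraries that are very alike. Malat1, a nuclear noncoding RNA, took 2.83% of its reads, 0.511 and 0.515% in knockdown libraries 1 and 2, and 0.302 to 0.333% in control libraries. Long genes were low in it. Compared with the mean of knockdown libraries 1 and 2, the median log2 difference of knockdown library 3 was 1.02 for 1325 genes with under 1 kb of exon and -0.37 for 2415 genes with at least 8 kb. All 8 skeletal muscle markers (Myod1, Myog, Des, Ckm, Acta1, Myh3, Ttn and Mymk) were lower in the knockdown, with summed normalised counts of 8788 to 10077 in knockdown and 1120794 to 1167042 in control libraries. Of 7 mesenchymal markers in the table, 3 were higher (Ly6a, Dcn and Cd34), 1 lower (Pi16) and 3 did not pass (Pdgfra, Lum and Dpt). Their sums, mainly Dcn, were 112713 to 189921 in knockdown and 8779 to 8978 in control libraries. Marker calls in this paragraph are at an adjusted p under 0.05 (limma, 6 libraries), where 21.7% of all genes tested were higher and 23.5% lower. The part of these marker changes in the results below was not tested, and in such bulk RNA fewer cells of a type cannot be told apart from less RNA per cell. Epithelial markers (3 of 6 in the table) summed to 1951 to 2722 in knockdown and 72.2 to 80.8 in control libraries, mainly through Krt14, while Krt8 was lower and Cdh1 did not pass. The 2 endothelial (of 6), 3 macrophage (of 5) and 3 Schwann cell markers (of 5) in the table summed to at most 90.5, 130 and 538 in knockdown libraries and 6.65, 139 and 134 in control libraries. Each knockdown maximum was that of library 3, and in knockdown libraries 1 and 2 the sums were at most 23.4, 78.6 and 131. Of the macrophage markers, Itgam was lower, at 0, 0 and 5.59 in knockdown libraries against 27.2, 42.9 and 30.4 in control libraries. Csf1r and Cd68 did not pass. The endothelial marker Tek was higher, at 13.3, 20.9 and 22.4 in knockdown libraries against 2.18, 2.53 and 4.75 in control libraries. The 5 adipocyte markers were not analysed here.

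Knockdown cells held more RNA of the α4 chain (Lama4, 8.14-fold) and less of the α2 chain (Lama2, 8.93-fold) than control cells. The β chains Lamb2 and Lamb1 moved apart without overlap between the groups, higher and lower in the knockdown, but missed the threshold with 6 libraries. Lamc1, Nid1, Nid2 and Hspg2 overlapped between the groups, because knockdown library 3 lay below the controls and knockdown library 1 above them. With all 6 libraries, 1 member was higher (Lama4) and 1 lower (Lama2) at an adjusted p under 0.05 (limma, Benjamini-Hochberg over all genes tested), and 7 did not pass. Over all genes 45.2% were called, 21.7% higher and 23.5% lower, so the share of members called was not above that of genes in general. The median log2 difference was -0.39 over the 9 members and -0.0013 over all genes. Without knockdown library 3, 4 members were higher (Lama4, Lamb2, Nid2 and Nid1) and 3 lower (Lama2, Lamb1 and Lama5), where 78.5% of all genes were called (38.6% higher and 39.9% lower), and the median was 0.20 over members and -0.0091 over all genes. The knockdown values lay wholly above the control values for 2 members and wholly below for 3, while 62.6% of all genes were separated in this way.

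**Figure D1:**
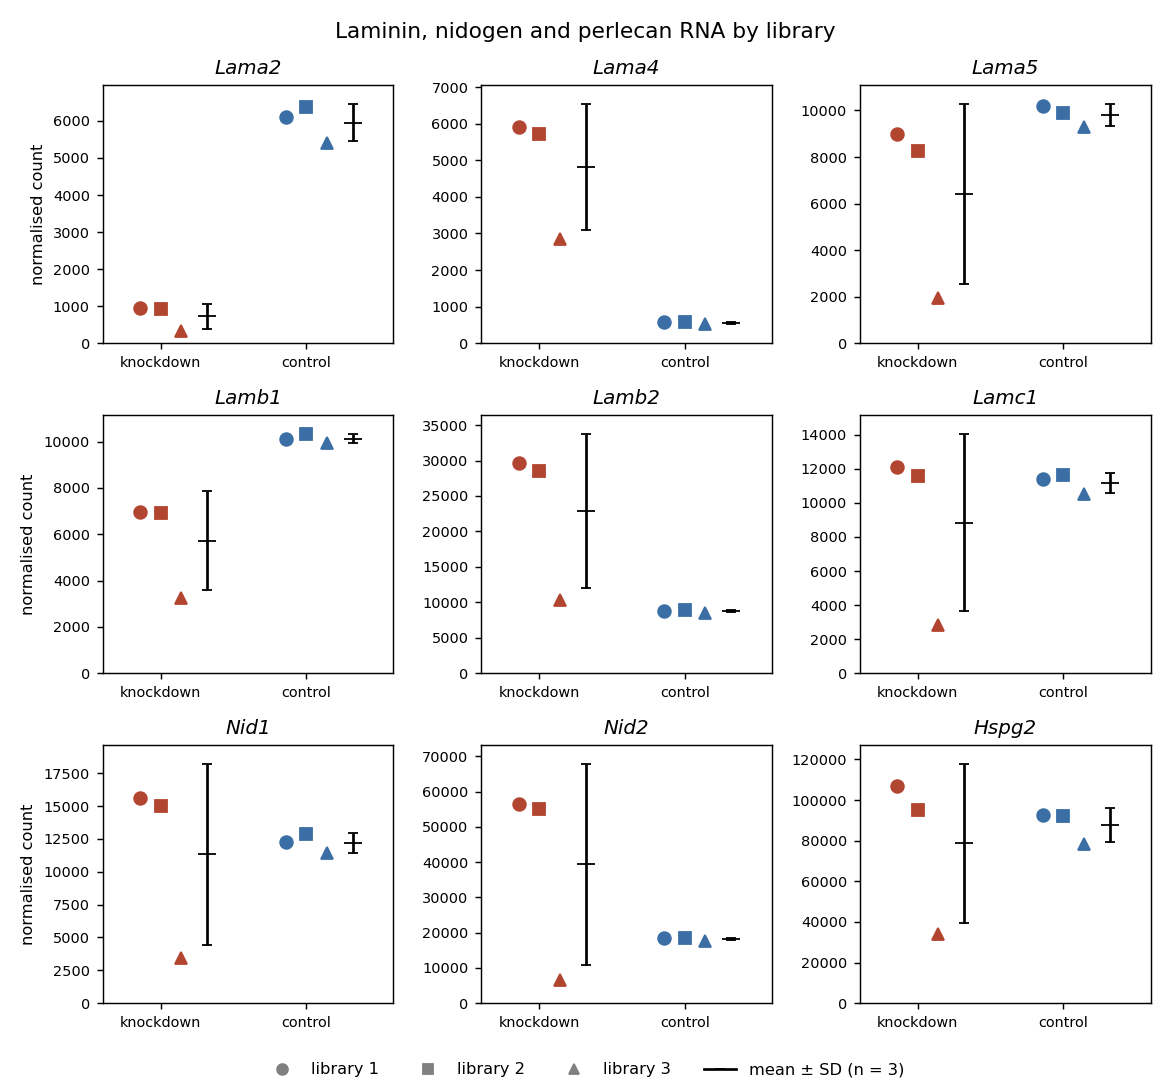
Normalised counts (vertical axes, from 0) of the 9 genes in the 3 knockdown libraries (red, left) and 3 control libraries (blue, right), with symbols for library number and black bars for the mean ± SD (n = 3). Knockdown library 3 (triangle) is the lowest knockdown library for every gene. Lama4 and Lamb2 lie above and Lama2, Lama5 and Lamb1 below the control values in all 3 knockdown libraries.

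Among the α chains, Lama2 (ENSMUSG00000019899, GRCm38 chromosome 10, 26980036 to 27619758, minus strand) had normalised counts of 939, 917 and 340 in knockdown libraries 1 to 3, against 6098, 6363 and 5395 in control libraries 1 to 3. Every knockdown value was below every control value, and the lowest knockdown value was that of library 3. The mean was 732 ± 340 in knockdown and 5952 ± 501 in control (SD, n = 3 each). The log2 difference, knockdown minus control, was -3.16 ± 0.41 (SE; adjusted p = 0.00146, limma), and it was -2.68 ± 0.069 without knockdown library 3. Values are per gene, so isoforms cannot be told apart.

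Lama4 (ENSMUSG00000019846, chromosome 10, 38965515 to 39110188, plus strand), which lacks the full short arm of other α chains, had 5903, 5712 and 2839 in knockdown libraries, against 571, 578 and 536 in control libraries. All 3 knockdown libraries exceeded all controls, library 3 by the smallest margin. Its mean was 4818 ± 1716 in knockdown and 562 ± 22.8 in control (SD, n = 3 each), a log2 difference of 3.02 ± 0.30 (SE; adjusted p = 0.000496, limma), or 3.37 ± 0.058 without knockdown library 3. Lama2 and Lama4, which lie on the same chromosome, thus moved in opposite directions, and each kept its direction and its call with any 1 library left out.

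Lama5 (ENSMUSG00000015647, chromosome 2, 180176373 to 180225859, minus strand), a broadly expressed α chain, had 9009, 8248 and 1965 in knockdown libraries, against 10194, 9911 and 9268 in control libraries. The groups did not overlap, but 2 of the 3 knockdown values lay close to the controls. The log2 difference was -0.89 ± 0.59 (SE; adjusted p = 0.265, limma) with 6 libraries and -0.18 ± 0.058 (adjusted p = 0.0148) without knockdown library 3. The size of the Lama5 difference was therefore set mainly by 1 library.

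Between the β chains the balance moved to Lamb2. Lamb1 (ENSMUSG00000002900, chromosome 12, 31265234 to 31329644, plus strand), the β chain of most early laminins, had 6979.8, 6922 and 3252 in knockdown libraries, against 10096, 10326 and 9932 in control libraries. Its log2 difference was -0.91 ± 0.31 (SE; adjusted p = 0.0589, limma), and -0.54 ± 0.043 (adjusted p = 1.18e-06) without knockdown library 3. Lamb2 (ENSMUSG00000052911, chromosome 9, 108479736 to 108490530, plus strand), the β chain concentrated at neuromuscular junctions, had 29714, 28538.5 and 10300.3 in knockdown libraries, against 8768, 8936 and 8559 in control libraries. Knockdown library 3 lay just above the controls and the other knockdown libraries far above them. The log2 difference of Lamb2 was 1.23 ± 0.42 (SE; adjusted p = 0.0564, limma), and 1.73 ± 0.046 (adjusted p = 3.13e-10) without knockdown library 3. Both β chains thus missed the threshold narrowly with 6 libraries although their groups did not overlap. The edgeR quasi-likelihood test on recovered reads, which called 45.2% of all genes (23.2% higher and 22.0% lower), gave an adjusted p of 0.0718 for Lamb1 and 0.0299 for Lamb2. DESeq2 on the same reads, which called 53.0% (27.2% higher and 25.8% lower), gave 0.0282 for Lamb1 and 0.00231 for Lamb2. In the authors' deposited table, which called 51.7% of its genes at an adjusted p under 0.05, the adjusted p was 0.0308 for Lamb1 and 0.00309 for Lamb2.

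Lamc1 (ENSMUSG00000026478, chromosome 1, 153218922 to 153332786, minus strand) encodes γ1, the γ chain shared by most laminins and the one that nidogens bind. It had 12120.0, 11567.5 and 2844 in knockdown libraries, against 11434, 11618 and 10513 in control libraries. Knockdown libraries 1 and 2 fell in or just above the control range and library 3 far below it. The log2 difference of -0.60 ± 0.57 (SE) did not pass (adjusted p = 0.429, limma), and without knockdown library 3 it was 0.083 ± 0.055 (adjusted p = 0.189). Its sign therefore depended on that library.

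Neither nidogen passed with 6 libraries. Nid1 (ENSMUSG00000005397, chromosome 13, 13437551 to 13512269, plus strand) had 15578, 15020.4 and 3406 in knockdown libraries, against 12301, 12893 and 11419 in control libraries. Nid2 (ENSMUSG00000021806, chromosome 14, 19751265 to 19811787, plus strand), its paralog, had 56556.5, 55043 and 6578 in knockdown libraries, against 18482, 18356 and 17726 in control libraries. For both genes knockdown libraries 1 and 2 were above all controls and library 3 was below all of them. The log2 differences with 6 libraries were -0.39 ± 0.60 for Nid1 (SE; adjusted p = 0.627, limma) and 0.59 ± 0.85 for Nid2 (adjusted p = 0.607). Without knockdown library 3 they were 0.33 ± 0.057 (adjusted p = 0.000423) and 1.62 ± 0.048 (adjusted p = 7.07e-10), so that the call of either gene rested on leaving that library out. The Nid2 gene span overlaps Rtraf on the other strand and the spans of Nid1 and Lama2 overlap antisense transcripts. The strand setting of the counting is not given in the sources used here, so such reads could not be told apart.

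Hspg2 (ENSMUSG00000028763, chromosome 4, 137468769 to 137570630, plus strand), which encodes perlecan, had 106824, 95155 and 33922 in knockdown libraries, against 92894, 92321.5 and 78202 in control libraries. Again library 3 was the low one and the other knockdown libraries lay slightly above the controls. The log2 difference was -0.32 ± 0.46 (SE; adjusted p = 0.611, limma), and 0.20 ± 0.089 (adjusted p = 0.0572) without knockdown library 3, where edgeR gave an adjusted p of 0.0174.

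**Figure D2:**
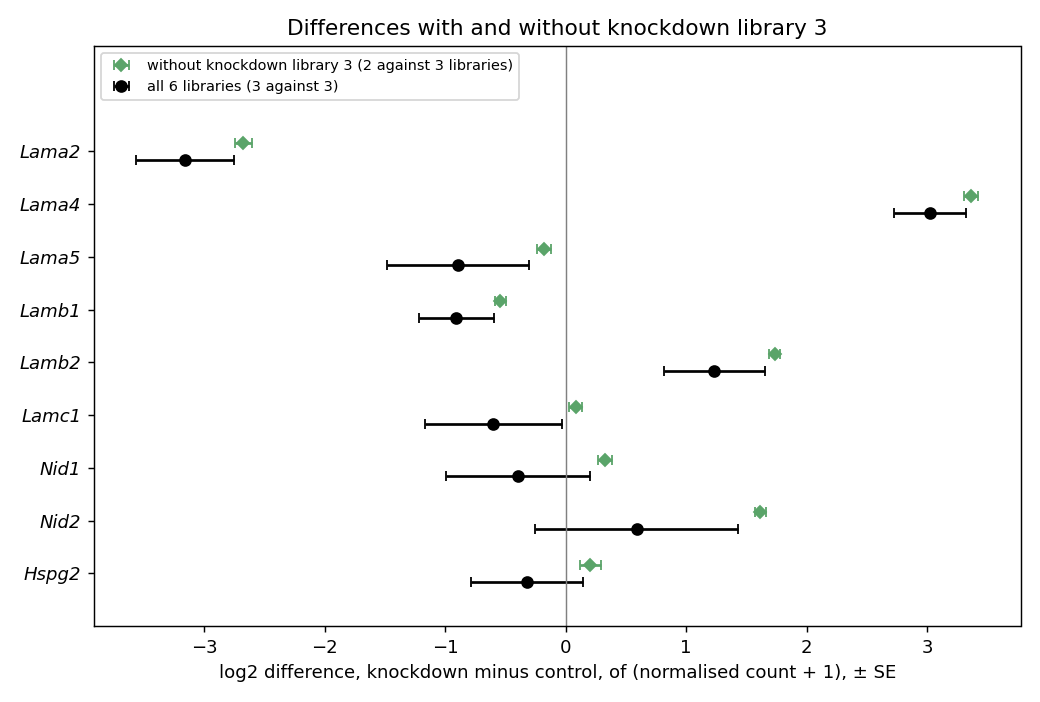
Log2 difference, knockdown minus control, of each of the 9 genes (horizontal axis) with its SE, with all 6 libraries (black circles) and without knockdown library 3 (green diamonds). Lama2 and Lama4 keep their direction, at -3.16 and 3.02 with 6 libraries and -2.68 and 3.37 without knockdown library 3, while Lamc1, Nid1 and Hspg2 lie on the other side of 0 without knockdown library 3.

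Knockdown library 3 was below knockdown libraries 1 and 2 for all 9 members. The log2 difference between it and their mean ranged from -3.08 for Nid2 to -1.03 for Lama4, with a median of -1.57. Over all genes tested the median was -0.040, and 15.1% of genes were as low as Lama4 or lower. The members have 5174 to 16338 bases of exon, and genes of 4 to 6 kb, 6 to 8 kb and at least 8 kb had medians of -0.27, -0.37 and -0.37. All 9 members were thus lower in this library than the median gene of their length. Nid2, the shortest member, had the largest deficit. After a trend on exonic length was removed from each library, an alternative added after seeing the data, 4 members passed: Lama2 (-3.15), Lama4 (3.04), Lamb1 (-0.89, adjusted p = 0.018) and Lamb2 (1.26, adjusted p = 0.0248), where 48.3% of all genes did (22.9% higher and 25.4% lower). The scatter of the knockdown values was accordingly wide, with SDs of 35.6 to 72.2% of the mean, against 1.95 to 9.48% in control libraries.

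**Figure D3:**
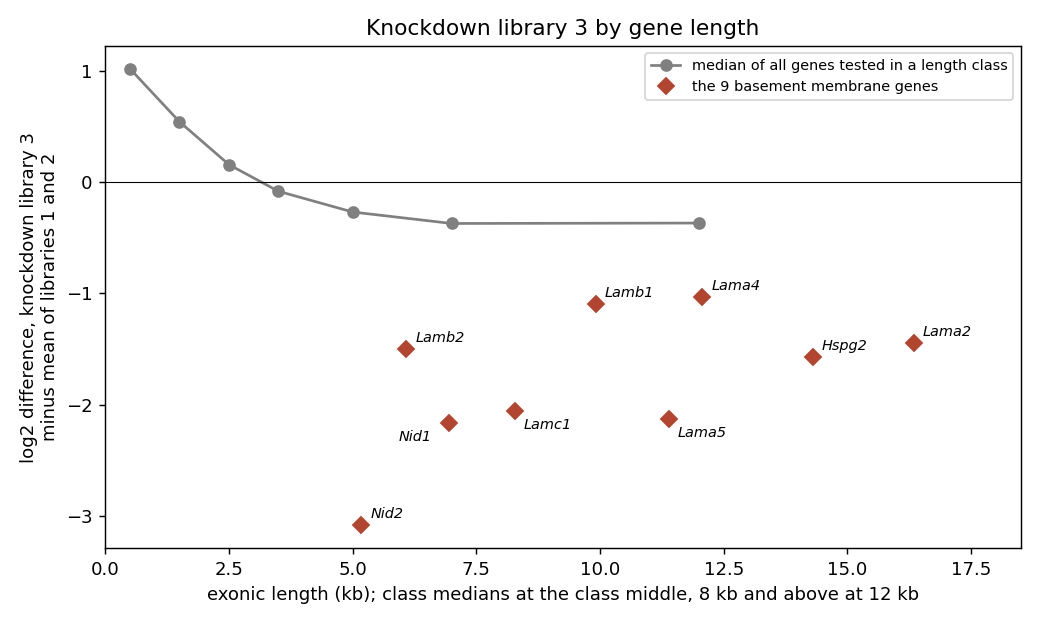
Log2 difference between knockdown library 3 and the mean of knockdown libraries 1 and 2 (vertical axis) against exonic length in kb (horizontal axis). The grey line joins the medians of all genes tested in 7 length classes, which run from 1.02 under 1 kb to -0.37 at 8 kb and above. The 9 genes (red diamonds) lie between -3.08 and -1.03, all under that line.

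Levels of different genes were compared as normalised counts per kb of exon (GENCODE M21). The longest coding transcript is much shorter for some members, at 6046 against 12068 bases for Lama4 and 5784 against 9917 for Lamb1. The orders and ranks given here are by exonic length, and those of such members depend on that choice. In knockdown libraries 1 and 2 Nid2 came first, at 10931 and 10638 per kb, then Hspg2 at 7467 and 6651 and Lamb2 at 4886 and 4692. Lama5 (791 and 724) and Lamb1 (704 and 698) were neighbours there, and Lama2 was last, at 57.5 and 56.1. In knockdown library 3 Hspg2 led at 2371 per kb, followed by Lamb2 at 1694 and Nid2 at 1271, and Lama2 was again last at 20.8. In control cells the order was Hspg2 (6137 ± 582 per kb; SD, n = 3, as for the values that follow), Nid2 (3515 ± 78.3), Nid1 (1758 ± 107), Lamb2 (1439 ± 31.0), Lamc1 (1353 ± 71.6), Lamb1 (1020.3 ± 19.9), Lama5 (859.8 ± 41.7), Lama2 (364 ± 30.6) and Lama4 (46.5 ± 1.89). Lamb2 and Lamc1 came closest to each other, at 1407 to 1469 and 1271 to 1404 per kb. Perlecan RNA exceeded 97.8% of genes per kb in knockdown and likewise 97.8% in control cells. Lama2 exceeded 29.5% of genes in knockdown and 67.6% in control cells, and Lama4 exceeded 70.3% in knockdown and 31.2% in control cells.

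Because trimers need 1 chain of each class, the share of each chain within its class was set out per library, a quantity that does not depend on the scaling between libraries. Lama4 made up 36.2, 37.4 and 53.6% of α chain RNA per kb in knockdown libraries 1 to 3, against 3.39, 3.45 and 3.53% in control libraries. Lama2 made up 4.25, 4.43 and 4.74% in knockdown libraries, against 26.8, 28.0 and 26.3% in control libraries. Lama5 made up 58.5, 57.2 and 39.3% in knockdown libraries, against 64.2, 62.6 and 64.8% in control libraries. The shift between Lama2 and Lama4 was present in every knockdown library, including the third, in which Lama5 also gave way to Lama4. Among β chains, Lamb2 made up 87.4, 87.0 and 83.6% in knockdown libraries, against 56.0, 56.2 and 55.7% in control libraries. Among the nidogens, Nid2 made up 83.0, 83.1 and 72.2% in knockdown libraries, against 66.8, 65.6 and 67.6% in control libraries.

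The sums of a class per kb were compared as well. The nidogen sum was 13175, 12802 and 1762 in knockdown libraries, against 5344, 5405 and 5071 in control libraries. The β sum per kb was 5592, 5392 and 2027 in knockdown libraries, against 2572, 2614 and 2528 in control libraries. The α sum was 1352, 1267 and 439 in knockdown libraries, against 1395, 1391 and 1257 in control libraries. In knockdown libraries 1 and 2 the α sum was thus near that of the controls and the nidogen and β sums were above theirs, while in library 3 each of these 3 sums was below every control. With the length of the longest coding transcript in place of all exons, an alternative added after seeing the data, Lama4 made up 51.9 to 68.3% of α chain RNA in knockdown and 5.54 to 5.78% in control libraries. Lamb2 then made up 76.3 to 81.4% of β chain RNA in knockdown and 44.7 to 45.2% in control libraries, below Lamb1 there (50.5 to 50.8%). Among members of a class, the order of Lamb1 and Lamb2 in control cells, and that of Lama4 and Lama5 in knockdown libraries 1 and 2, therefore depended on the length used. Orders between members of different classes were not set out with that other length.

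**Figure D4:**
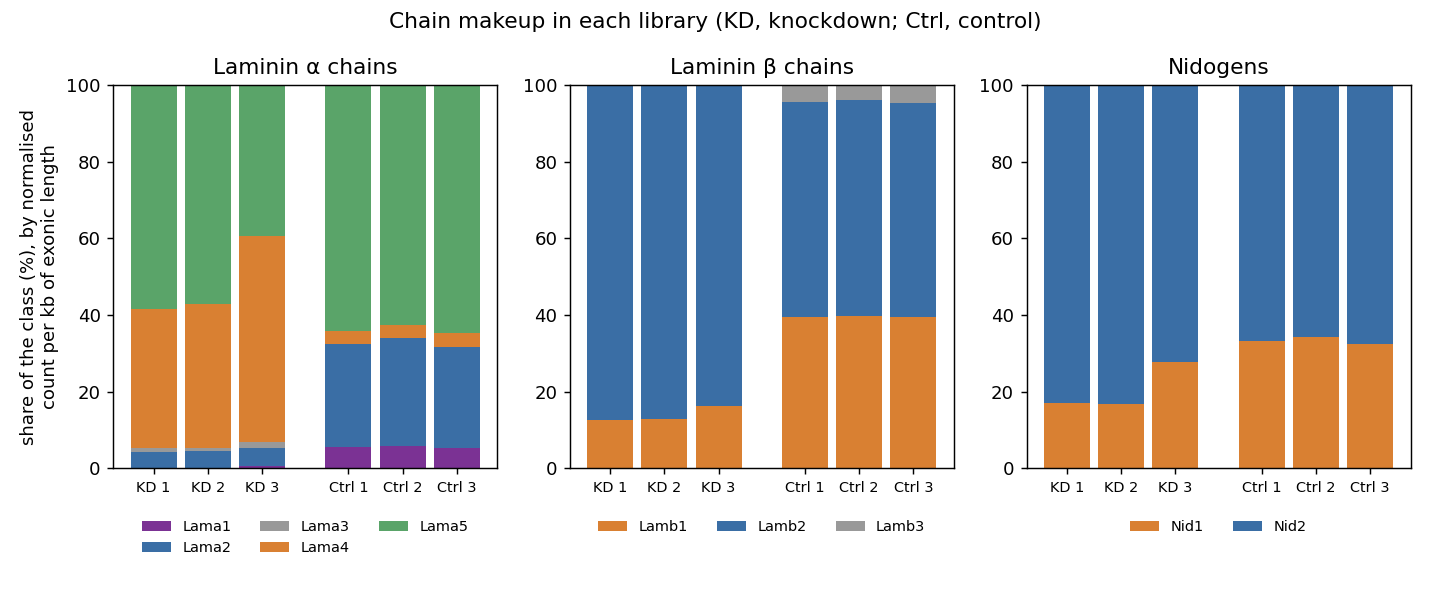
Share (vertical axis, percent, stacked from 0 to 100) of each gene in the normalised counts per kb of its class, for laminin α chains, laminin β chains and nidogens, in the 3 knockdown libraries (KD, left) and 3 control libraries (Ctrl, right). Lama4 holds 36.2 to 53.6% of the α class in knockdown and 3.39 to 3.53% in control libraries, and Lamb2 83.6 to 87.4% of the β class in knockdown and 55.7 to 56.2% in control libraries.

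Within a library, 5 ratios of normalised counts between members were compared. The log2 ratio of Lama2 to Lama4 was -2.65, -2.64 and -3.06 in knockdown libraries, against 3.41, 3.46 and 3.33 in control libraries, a difference of -6.18 or 72.6-fold. That of Lama5 to Lama4 was 0.61, 0.53 and -0.53 in knockdown libraries, against 4.16, 4.10 and 4.11 in control libraries. For Lamb2 to Lamb1 it was 2.09, 2.04 and 1.66 in knockdown libraries, against -0.20, -0.21 and -0.21 in control libraries, a difference of 2.14 or 4.41-fold. For Lama2 to Lama4 and Lamb2 to Lamb1, knockdown library 3 lay closer to the other knockdown libraries in the ratio than in the level of either gene. The log2 ratio of Nid2 to Nid1 averaged 1.56 ± 0.53 in knockdown and 0.58 ± 0.063 in control (SD, n = 3 each), and that of Hspg2 to Lamc1 averaged 3.25 ± 0.28 in knockdown and 2.97 ± 0.066 in control. In each of the 5 ratios the groups did not overlap, where 62.6% of all single genes were separated and other gene pairs were not examined. For Hspg2 to Lamc1 the gap was narrow, with a lowest knockdown value of 3.04 and a highest control value of 3.02. Its difference was 0.28 with 6 libraries and 0.12 without knockdown library 3. For each ratio an exact two-sided permutation test gave p = 0.1, below which 3 against 3 libraries cannot go (0.1 after adjustment over the 5).

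Promoter sequence from RefSeq (GRCm38.p6) was found for 6 of the 9 members, all but Lama4, Lamc1 and Nid2. Those of Lama2 and Lamb2 are shown because they belong to the matched α and β chains with the largest log2 differences, in opposite directions. Each runs 5′ to 3′ on the strand of the gene, from 250 bases before the RefSeq start, and ends at that start or, in Lamb2, before the first GENCODE exon. The Lama2 start of RefSeq lies inside the longer GENCODE gene span given above. Capitals mark the letters CANNTG, the E-box that myogenic basic helix-loop-helix factors such as Myod1 and Myog bind. The Lama2 stretch is chr10:27616943-27617192, minus strand, and the Lamb2 stretch is chr9:108479612-108479735, plus strand.
Lama2: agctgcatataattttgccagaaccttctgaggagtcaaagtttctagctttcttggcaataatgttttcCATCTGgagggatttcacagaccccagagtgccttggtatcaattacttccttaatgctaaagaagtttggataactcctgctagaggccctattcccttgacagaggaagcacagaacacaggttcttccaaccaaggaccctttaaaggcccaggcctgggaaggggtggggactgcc
Lamb2: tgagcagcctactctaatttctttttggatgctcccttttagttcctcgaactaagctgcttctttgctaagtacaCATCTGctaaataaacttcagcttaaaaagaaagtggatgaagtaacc
Both hold 1 match with the same letters, 180 bases before the start in Lama2 and 174 in Lamb2. The pattern, searched on both strands, was present in 4 of the 6 member promoters and in 66.2% of 32851 promoter windows of 250 bases. Its form CAGCTG was found in 0 of the 6 and in 13.0% of all. The GC box, GGGCGG on either strand, was found in 4 of the 6 and in 32.7% of all. A match is a description of the letters and not evidence of binding.

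Some laminin chains that are typical of epithelia or embryos differed between the groups too. Lamb3, a β chain of the laminin that anchors skin epithelium, had 14.9, 14.2 and 35.8 in knockdown libraries, against 745, 685 and 787 in control libraries, a log2 difference of -5.15 ± 0.37 (SE; adjusted p = 0.000153, limma). Lama3, the α chain of the same laminin, in contrast had 153, 141 and 77.1 in knockdown libraries, against 2.18, 0 and 0.95 in control libraries. Those control values are 3 reads in all, and the scaled ratio was 118-fold (exact 95% binomial counting interval 39.96 to 572; adjusted p = 0.000334, limma), where such intervals cover counting error only. Lama1, the first α chain of the embryo, had 0, 0.836 and 26.8 in knockdown libraries, against 765, 805 and 660.3 in control libraries (-7.64 ± 1.22; adjusted p = 0.00342, limma). Its size depended on single libraries: it was -6.70 without knockdown library 1, and without knockdown library 3 only 1 read was left in the knockdown, 1769-fold lower than control (counting interval 317 to 69892). Lamc3 had 0, 1.67 and 26.8 in knockdown libraries, against 20.7, 13.9 and 11.4 in control libraries, and did not pass (adjusted p = 0.248, limma). Without knockdown library 3 it had 2 reads in the knockdown, 18.3-fold lower (counting interval 4.75 to 156), and passed (adjusted p = 0.000247).

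Over all genes, 45.2% were called with 6 libraries and 78.5% without knockdown library 3, and the median log2 difference was -0.0013. Of 9 receptors of laminin, 3 were higher, 5 lower and 1 did not pass (3 higher and 6 lower without knockdown library 3), with a median log2 difference of -1.18, and those named here had an adjusted p of at most 0.00827 (limma). Itga7, the integrin α subunit of differentiated muscle that binds laminin, had 7182, 6736 and 5705 in knockdown libraries, against 33437, 32681 and 33866 in control libraries (-2.36 ± 0.14). Bcam, a surface receptor for Lama5-containing laminins, averaged 130 ± 21.5 in knockdown and 1224 ± 42.3 in control (-3.24 ± 0.17). Itgb4, the integrin β subunit of epithelial hemidesmosomes, had 248, 230.03 and 237 in knockdown libraries, against 53.4, 45.5 and 50.4 in control libraries (2.24 ± 0.17), and the syndecan Sdc4 was higher by 1.28 ± 0.18. Dag1, which encodes dystroglycan and was chosen after its values were seen, had 10092, 9695 and 3183 in knockdown libraries, against 34177, 34309 and 31953 in control libraries (-2.30 ± 0.46). Of 13 genes in the table that act in building the laminin-binding glycan of dystroglycan, 3 were higher, 2 lower and 8 did not pass (7, 3 and 3 without knockdown library 3), where 45.2 and 78.5% of all genes were called, with a median of 0.21 (adjusted p of those named at most 0.00979, limma). Pomgnt2 and B4gat1, which extend the glycan, were higher by 1.93 ± 0.26 and 0.71 ± 0.14. Tmem5, a xylosyltransferase, and Gmppb, which makes GDP-mannose, were lower, with log2 differences of -0.62 ± 0.12 and -1.02 ± 0.21.

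Collagens of the basement membrane were higher in 1, lower in 2 and not past the threshold in 3 of 6 cases (1 higher and 4 lower without knockdown library 3), where 45.2 and 78.5% of all genes were called, with a median of -1.27 (adjusted p of those named at most 0.00198, limma). Col4a5, a chain of the type IV collagen network, had 3916, 4048 and 1438 in knockdown libraries, against 5.45, 3.79 and 1.90 in control libraries (9.31 ± 0.51). Col15a1 and Col18a1, which encode the multiplexin collagens, were lower, with log2 differences of -3.20 ± 0.33 and -3.14 ± 0.44. Of 14 other basement membrane genes, 3 were higher, 6 lower and 5 did not pass (5 higher and 9 lower without knockdown library 3, against the same shares of all genes), with a median of -1.74 (adjusted p of those named at most 0.000188, limma). Npnt, which encodes the integrin ligand nephronectin, averaged 663 ± 74.3 in knockdown and 28731 ± 1189 in control (-5.44 ± 0.13), and Smoc2, a calcium-binding matrix protein, averaged 19.2 ± 6.70 in knockdown and 479 ± 94.0 in control (-4.60 ± 0.30). Ecm1, a secreted protein that binds perlecan, and Tinagl1 were higher by 2.59 ± 0.11 and 4.12 ± 0.31.

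The heparan sulfate chains of perlecan are made and edited by enzymes of which 17 were tested. Of these, 2 were higher, 2 lower and 13 did not pass (10 higher and 7 lower without knockdown library 3), where 45.2 and 78.5% of all genes were called, with a median of 0.046. Hpse, the heparanase that cuts the chains, had 461, 473 and 253 in knockdown libraries, against 10.9, 13.9 and 11.4 in control libraries (4.88 ± 0.31). Sulf1, which removes sulfate from them outside the cell, had 6.63, 5.86 and 6.71 in knockdown libraries, against 584, 623 and 527 in control libraries (-6.29 ± 0.19). For Hpse and Sulf1 the 3 knockdown values lay far from every control value. The other sulfatase listed, Sulf2, was more abundant than Sulf1 and averaged 8107 ± 4288 in knockdown and 5099 ± 254 in control (SD, n = 3 each). Its groups overlapped and it did not pass with 6 libraries (adjusted p = 0.465, limma), while it was higher without knockdown library 3. Glce, the epimerase of the chain, was lower (-1.28 ± 0.25; adjusted p = 0.00747, limma). B3galt6, which builds the linker to the protein, was higher by 0.46 ± 0.12 (adjusted p = 0.021, limma), but its adjusted p was 0.0677 to 0.0986 when knockdown library 1 or 2 or any 1 control library was left out and 0.0877 with a replicate block.

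For each member the gene with the most similar profile was sought among 65 other members and listed genes with a mean of at least 100, as the smallest root mean square difference of log2 values over the 6 libraries, each set to its control mean. Lamc1 and Nid1 were nearest to each other (0.15), and Lama5 was nearest to Lamc1 (0.21). Lama2 was nearest to Col18a1 (0.081), Lamb1 to Sdc1 (0.043) and Hspg2 to Extl3, a heparan sulfate enzyme (0.15). Pxdn, from the list of other basement membrane genes, was as near to Hspg2 as Extl3 (0.1488 for both). Fam20b, from the heparan sulfate list, came next for Lama5 (0.21) and Lamc1 (0.16), almost as near as the first. Lamb2 was nearest to Ext2, which polymerises heparan sulfate (0.35), Lama4 to the laminin-binding integrin subunit Itga3 (0.37), and Nid2 to the sulfatase Sulf2 (0.46). The smallest difference was thus at most 0.21 for Lama5, Hspg2, Lama2, Lamb1, Lamc1 and Nid1, and 0.35 to 0.46 for Lama4, Lamb2 and Nid2. No limit for a match was set beforehand. These profiles contain the difference between the groups and the offset of knockdown library 3, which all members share.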

How the data were processed

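RNA of 6 C2C12 libraries was analysed from 1 deposited table. Per the submitters' processing notes, Trimmomatic 0.36, featureCounts (Subread 1.5.2), DESeq2 and GRCm38 were used; no source used here gives the aligner, annotation release or strand setting. Per the file headers, the table holds the authors' log2 fold change, p-value and adjusted p-value and 1 normalised signal per library. The deposited signal values are gene counts divided by a size factor: 100% of values were whole multiples of 1 read (tolerance 0.01 reads), so reads were recovered, and 1 read was worth 0.829 to 1.26 units.

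Values were tested with limma 3.58.1 (R 4.3.3) on log2(value + 1), which understates changes of low genes, with a mean-variance trend, no block, two-sided, Benjamini-Hochberg adjustment over 16245 genes with at least 10 in at least 3 libraries. Alternatives were other filters (none, 50), pseudocounts (0.5, 5) and scalings, limma without trend, edgeR 4.0.16, DESeq2 1.42.0, a replicate block and each library left out. edgeR without knockdown library 3, removal of a length trend and another transcript length were added after seeing the data. The procedure was tested on simulated counts that had the spread of the control libraries only. The offset of knockdown library 3 was not part of them, so they do not show how the test behaves with it. Positions and exonic lengths are from GENCODE M21 (GRCm38), in which 16806 genes were found by identifier.

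The members and gene lists were chosen with earlier results of these data known. Genes named are the 9 members, Adamtsl2, other laminin chains (1 result is not reported here), up to 2 genes per direction of each further list by smallest adjusted p, and the most similar gene of each member; Dag1, Malat1 and markers named singly were chosen after their values were seen.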

Additional observations from a re-analysis of the deposited data

How the results depend on the processing

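With 1 library left out at a time, 2443 to 6269 genes were higher and 2648 to 6485 lower, and 1 to 4 members were higher and 1 to 3 lower. The upper ends all came without knockdown library 3, where edgeR called 6489 genes higher and 6459 lower and 5 members higher (Hspg2 joining) and 3 lower. Upper-quartile scaling, which moved the median of all genes by 0.12 log2, called 2 members higher (Lamb2 joining). Over all genes it called 4009 higher and 3488 lower, against 3519 and 3823 in the main test. With edgeR and DESeq2, 2 members were also higher (Lamb2 joining), where 23.2 and 27.2% of all genes were higher. DESeq2 called 2 members lower (Lamb1 joining), where 25.8% of all genes were lower. Removing the length trend called 2 members higher and 2 lower, where 22.9% of all genes were higher and 25.4% lower. Without knockdown library 3, by limma and by edgeR, the log2 difference reversed for Lamc1 (0.083 and 0.10), Nid1 (0.33 and 0.35), Hspg2 (0.20 and 0.22) and Extl3 (0.34 and 0.36); Extl3 was also at 0.024 in edgeR and 0.0079 in DESeq2 with 6 libraries. Their lowest values with 1 library left out were -0.96, -0.77, -0.62 and -0.39, in that order of genes, all without knockdown library 1. By limma, Pxdn reversed as well, from -0.17 with 6 libraries to 0.44 without knockdown library 3. The cause was not tested. Lama2 and Lama4 kept direction and call under all 18 alternatives, and the 5 ratios kept their direction under all 8 tried.

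Deviations of same-numbered libraries from their group means correlated at 0.017, 0.10 and 0.14, and those of differently numbered libraries at -0.15 to 0.12. All knockdown deviations carry the offset of knockdown library 3, so these values cannot show whether libraries were prepared in pairs. With a replicate block, 3010.0 genes were higher and 3301 lower, 1 member was higher and 1 lower, and B3galt6 alone of the named genes lost its call. A member had at least 304 reads in each library, and no alternative varied the depth.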
